A study of Mus musculus with 9 samples.

Results

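This comparison set 2 viral nucleic acid mimics against each other in mouse embryonic fibroblasts: poly(I:C), which imitates double-stranded viral RNA, against poly(dA:dT), which imitates AT-rich DNA. Its members were the 6 libraries that the labels assign to a mimic, 3 per mimic, of 9 libraries in the series, and all genes were read in them. Every culture carried the β-actin knockout genotype in the BALB/c strain and came from embryos of day 10.5, so the control cells lacked β-actin too. Each mimic was given at 10 µg/ml for 6 h with Lipofectamine 2000 as carrier in Opti-MEM medium, and the 3 mock libraries received the carrier only. The labels state neither whether the fibroblasts were a single clone nor whether the 3 libraries of a group came from separate cultures, and the p-values therefore cover the spread among these samples alone, which may be technical.

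Mammalian cells read foreign nucleic acid in the cytosol through separate sensors. Long double-stranded RNA is bound by MDA5 and RIG-I, which signal through MAVS, and it also activates the kinase PKR and the oligoadenylate synthetases. Double-stranded DNA is bound by cGAS, which signals through STING, and AT-rich DNA can in addition be transcribed by RNA polymerase III into RNA that RIG-I binds. Both routes lead to IRF3 and NF-kB, to interferon-β and, through its receptor, to the interferon-stimulated genes.

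Gene counts added up to between 20738109 and 23185293 in the poly(dA:dT) libraries and between 16082772 and 22382837 in the poly(I:C) libraries, and levels are given as CPM, counts scaled to a common library size. Between 18833 and 19115 genes had a count in a poly(dA:dT) library and between 19647 and 20489 in a poly(I:C) library. Actb, the deleted gene, stood at 30.6 CPM after poly(dA:dT) and 32.4 CPM after poly(I:C), against 2873 and 2150.3 CPM for Actg1, the other cytoplasmic actin. Gene counts do not show which exons the remaining Actb reads came from. Of 14 fibroblast markers 12 passed the filter on low counts, with Col3a1 at 169 CPM after poly(dA:dT) and Thy1 at 1.73 CPM, while Lum had no count in the 6 libraries and Fap 2 and 12 counts per group. Of 12 macrophage markers 5 passed the filter, and of the rest Ptprc and Tyrobp had no count in any of the 9 libraries. Spi1 had 2, 6 and 16 counts and Mrc1 6, 4 and 13 in mock, poly(dA:dT) and poly(I:C). Adgre1, Itgam and Cx3cr1 had at most 5 counts per group.

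Similar numbers of genes were higher and lower between the mimics, but the large differences lay almost all on the side of poly(I:C). Genes were ranked if called (defined below), at a mean of at least 1 CPM, without a predicted gene's symbol and without overlap between the mimics. The largest rises among them were of Nhlh1, a transcription factor, Acod1, an enzyme of itaconate synthesis, and Tnf, the inflammatory cytokine. Their log2 fold changes were 6.66, 6.07 and 5.30. The Nhlh1 value rests on 1 count after poly(dA:dT) and the Acod1 value on 6. Of 14176 genes tested, 63.4% were called in either direction: 4434 were called higher after poly(I:C) (31.3%) and 4547 lower (32.1%), where called means an adjusted p under 0.05 in edgeR's quasi-likelihood test. At a fold of 2 or more the balance changed to 1080 genes higher (7.62%) against 58 lower (0.409%). Beyond 4-fold, 399 genes were higher and 3 lower, and beyond 8-fold 179 were higher and 0 lower. The CPM values of the mimics did not overlap for 4667 genes higher after poly(I:C) (32.9%) and 4702 lower (33.2%). Ranges without overlap were therefore common among all genes tested. The median log2 fold change over all genes tested was 0.00. It varied with the level of the gene, and the lists below were not matched for level. Against mock, 26.6% of the genes were called higher and 26.2% lower with poly(dA:dT), and 39.8% higher and 36.3% lower with poly(I:C). These 3 comparisons share libraries, so their values are set side by side only.

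**Figure D1:**
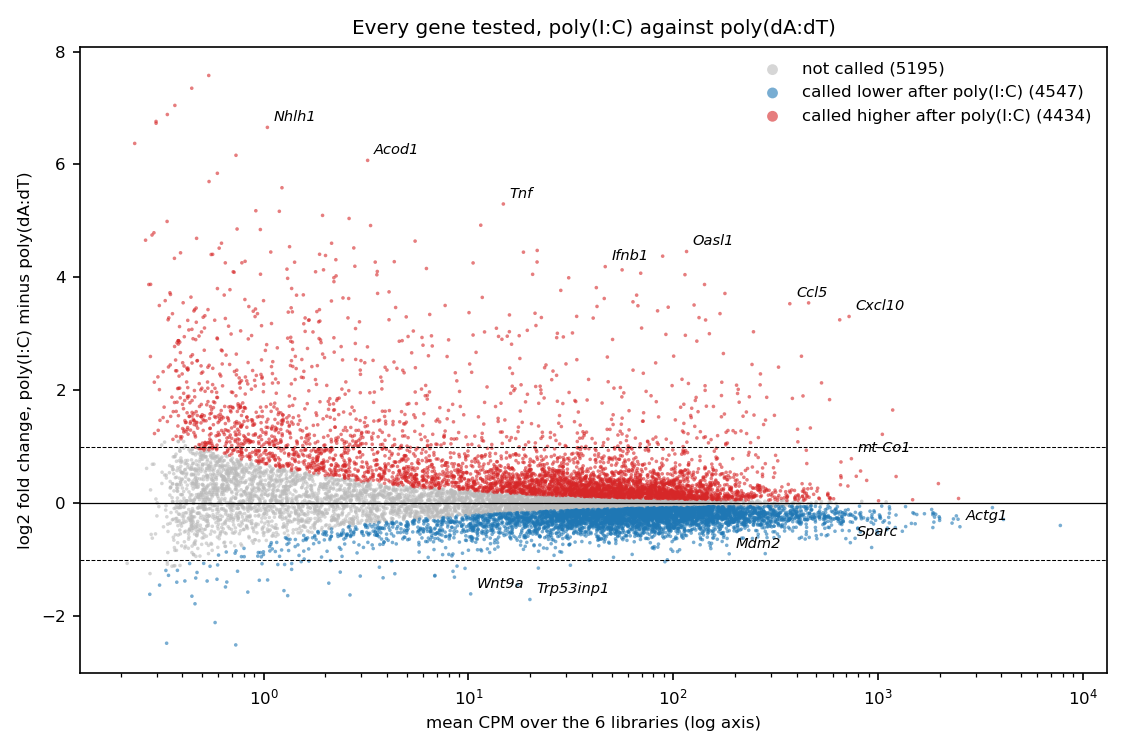
Each point is 1 of the 14176 genes tested, with its mean CPM over the 6 libraries on a log axis and its log2 fold change, poly(I:C) minus poly(dA:dT). Dashed lines mark a fold of 2 in either direction; 1080 called genes lie above the upper line and 58 below the lower one.

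The size of the difference varied with the level of the gene. Among 1563 genes with a mean under 1 CPM over the 6 libraries, 463 were called higher and 39 lower after poly(I:C). The median log2 fold change was 0.45 in this class, 0.17 from 1 to 10 CPM, -0.02 from 10 to 100 CPM and -0.11 from 100 CPM. Among 2686 genes at 100 CPM or more, 714 were higher and 1566 lower, and none of the lower ones reached 2-fold. The filter also kept genes with enough counts in a single group only, and the classes use the mean of the 6 libraries compared. The part of the filter in the skew under 1 CPM was not tested. CPM is relative to the total of each library, so RNA per cell was not measured, and in bulk samples fewer cells of a type and less RNA per cell cannot be told apart.

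Several sensors were far higher after poly(I:C), among them those that bind double-stranded RNA. MDA5, encoded by Ifih1, stood at 53.4, 55.3 and 52.1 CPM in the 3 poly(dA:dT) libraries and at 435, 451 and 432 CPM in the 3 poly(I:C) libraries, with a mock mean of 8.33 CPM. Its level was 8.2-fold higher after poly(I:C) (log2 fold change 3.04, SE 0.0308, adjusted p = 1.88e-138), and no library of one mimic reached the range of the other. RIG-I, encoded by Ddx58, stood at 105, 103 and 103 CPM after poly(dA:dT) and 556, 554 and 539.8 CPM after poly(I:C), a 5.31-fold difference, from a mock mean of 47.4 CPM. LGP2, the regulatory helicase encoded by Dhx58, was 9.71-fold higher, and Ddx60, a helicase of the same pathway, 12.9-fold. Zbp1, which senses nucleic acid in the Z form, showed the widest gap of the list, with 0.24, 0.513 and 0.391 CPM after poly(dA:dT) against 6.74, 5.9 and 7.74 CPM after poly(I:C).

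Ifi203 and Ifi204, of a family that includes DNA-binding sensors, were higher by 2.56 and 2.05 on the log2 scale. The DNA sensor cGAS, encoded by Cgas, stood at 68.6, 63.2 and 63.8 CPM after poly(dA:dT) and 116, 112 and 108 CPM after poly(I:C), higher after the RNA mimic by 1.73-fold (log2 0.79, adjusted p = 1.38e-45). STING, encoded by Tmem173, stood at 1.14 and 1.17 CPM, and did not pass the test (log2 0.03, SE 0.28, adjusted p = 0.924); its 2 groups overlapped. The adaptor Mavs was slightly lower after poly(I:C), at 55.3 against 61.1 CPM (log2 -0.14, adjusted p = 0.00247). Tlr4, the lipopolysaccharide receptor, was lower at a log2 fold change of -0.54, with ranges that overlapped and a call that was lost without poly(dA:dT) replicate 2 (adjusted p = 0.065). Of 32 sensors and adaptors listed, 30 were tested: 18 were higher (60%), 4 lower (13.3%) and 8 not called. Their median log2 fold change was 0.62. Of all genes tested, 31.3% were called higher and 32.1% lower. The 21 genes for RNA polymerase III subunits and RNA capping lay near those shares, with 6 higher (28.6%) and 7 lower (33.3%). Their median was 0.07, and the subunit gene Polr3g was lower by 1.29-fold.

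The enzymes that double-stranded RNA switches on were mostly higher after poly(I:C). The oligoadenylate synthetases make a messenger that switches on RNA cleavage, and Oas3 went from 0.479, 0.257 and 0.522 CPM after poly(dA:dT) to 9.55, 10.9 and 11.2 CPM after poly(I:C), a 25-fold gap. Oasl1, a synthetase-like protein without that activity, stood at 11.4, 10.1 and 8.91 and 219, 225 and 223 CPM (22-fold, adjusted p = 6.79e-132), against 0.101 CPM in mock. PKR, encoded by Eif2ak2, was already at 114 CPM without a mimic and 117 CPM after poly(dA:dT), and it reached 244 CPM after poly(I:C) (2.08-fold). All 16 listed enzymes and cofactors were tested: 12 were higher and 3 lower, the latter being the RNA-binding cofactors Ilf2, Tarbp2 and Prkra at log2 fold changes of -0.45, -0.20 and -0.14.

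**Figure D2:**
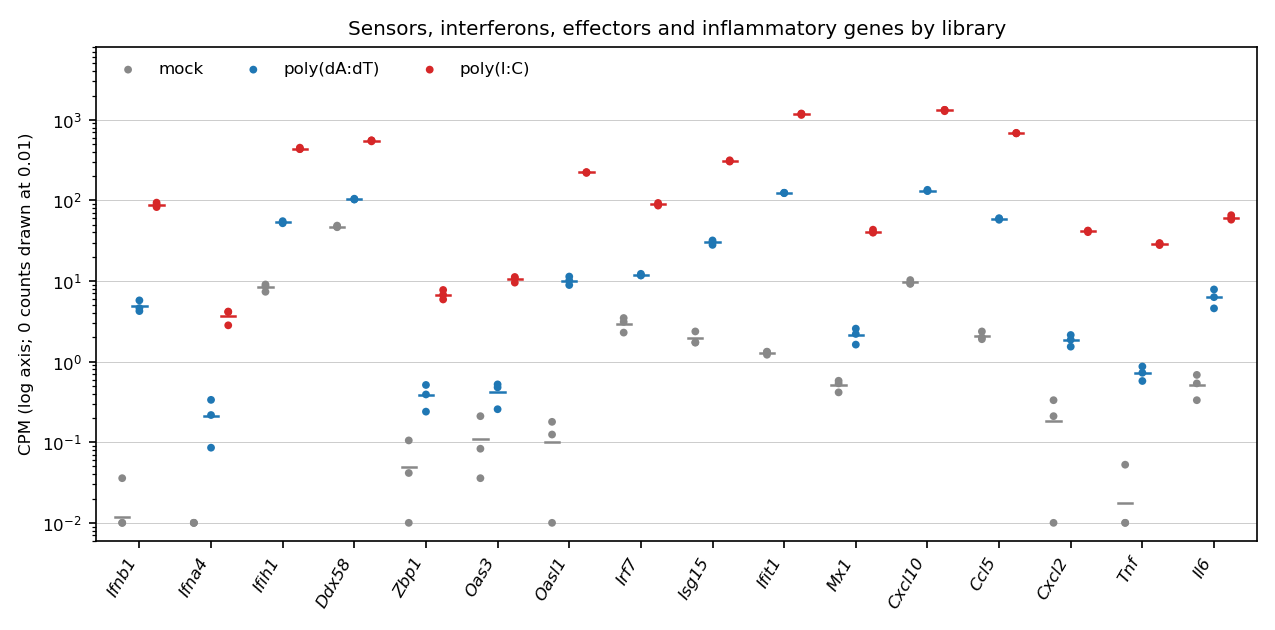
CPM on a log axis for 16 genes in each of the 9 libraries (points; short lines are group means, and libraries with 0 counts are drawn at 0.01). For each gene shown, the 3 poly(I:C) points lie above the 3 poly(dA:dT) points; Ifnb1 stands at 82.6 to 93.8 against 4.24 to 5.75 CPM.

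The transcript of interferon-β was 18.3-fold more abundant after poly(I:C). Ifnb1 stood at 5.75, 4.24 and 4.61 CPM in the poly(dA:dT) libraries and 93.8, 88.3 and 82.6 CPM in the poly(I:C) libraries (log2 4.19, SE 0.0725, adjusted p = 8.76e-103), against 0.0119 CPM in mock. Ifna4, an early interferon-α, stood at 0.335, 0.0856 and 0.217 and 4.12, 4.18 and 2.82 CPM (17.6-fold). Ifnb1 and Ifna4 alone of 19 listed interferon genes passed the filter on low counts. Summed over the 14 interferon-α genes in the files, poly(dA:dT) gave 21 counts in 3 libraries and poly(I:C) 325; the α genes are near-identical copies, so the split among them is uncertain. The Ifnb1 gene lies at chr4:88522025-88522774 on the minus strand (GRCm38). Its promoter is shown because it is the textbook case of a promoter that IRF and NF-kB factors occupy together. The stretch covers bases 179 to 87 before the RefSeq start (GRCm38.p6, chr4:88522881-88522973, minus strand), with capitals for 3 copies of the IRF core AANNGAAA and for 1 match to the NF-kB consensus:
Ifnb1: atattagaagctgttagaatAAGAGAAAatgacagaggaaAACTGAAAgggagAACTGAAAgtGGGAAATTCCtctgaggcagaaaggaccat

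The receptor and transcription factor tier was higher at its inducible members. Irf7, which amplifies interferon-α production, stood at 11.8, 12.3 and 11.7 CPM after poly(dA:dT) and 86.2, 88.3 and 93.0 CPM after poly(I:C) (7.46-fold, adjusted p = 8.28e-94). Stat2 and Irf9, subunits of the factor that binds interferon-stimulated response elements, were 5.49-fold and 3.95-fold higher. Irf3, which is activated by phosphorylation, was 1.2-fold higher, at 28.6 against 23.8 CPM. The deubiquitinase-like Usp18, an inhibitor of the interferon receptor, stood at 5.7, 5.56 and 6.91 and 108, 107 and 105 CPM, the widest gap of this list at 17.5-fold. Of 28 listed genes 27 were tested, 20 higher and 2 lower, with a median of 0.44; the lower ones were the receptor chain Ifngr2 (log2 -0.19) and the kinase Jak1 (log2 -0.09; -0.05 and adjusted p = 0.0854 when libraries were scaled by total counts).

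Interferon-stimulated effectors were mostly higher after poly(I:C). Of 55 listed, 50 were tested, and 48 were higher after poly(I:C), 42 of them at least 2-fold, with a median log2 fold change of 2.45. Isg15, a ubiquitin-like modifier, stood at 31.9, 28.1 and 30.4 CPM after poly(dA:dT) and 314, 303 and 307 CPM after poly(I:C) (10.3-fold, adjusted p = 8.73e-134). Ifit1, which binds RNA that lacks a self cap, stood at 124, 124 and 123 and 1197, 1183 and 1148 CPM (9.5-fold) from 1.29 CPM in mock. Mx1, an antiviral GTPase, stood at 2.2, 1.63 and 2.57 and 40.3, 43.3 and 39.8 CPM (19.3-fold). No library overlapped between the mimics for these 3 genes, and 32.9% of all genes tested likewise lay wholly higher after poly(I:C). Slfn5, of the Schlafen family, had no count in the 3 poly(dA:dT) libraries and 23, 25 and 8 counts in the poly(I:C) libraries, at least 20.7-fold higher where 3 counts over the group bound a count of 0. Ifitm2, a membrane protein that blocks virus entry, was the only member called lower. It stood at 97.5, 96.8 and 95.8 CPM after poly(dA:dT) and 78.6, 70.1 and 78.7 CPM after poly(I:C) (log2 -0.36). The 1 member that was not called had a log2 fold change of -0.54. The effectors tested took 0.164% of all counts with poly(dA:dT) and 0.74% with poly(I:C), against 0.11% in mock (means of 3 libraries).

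The 3 effector promoters below are shown because they carry the interferon-stimulated response element that the factor with Stat2 and Irf9 binds. Each is a stretch before the RefSeq start in GRCm38.p6, with capitals for its core letters (GAAA, any 2 bases, GAAA) or their reverse complement: Isg15 at chr4:156200855-156200916 (minus strand, 3 overlapping matches), Ifit1 at chr19:34640765-34640833 (plus strand, 2 matches) and Oas3 at chr5:120777705-120777754 (minus strand, 1 match). They lie 98 to 37, 124 to 56 and 95 to 46 bases before the start.
Isg15: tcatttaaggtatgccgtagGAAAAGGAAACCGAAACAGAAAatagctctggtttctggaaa
Ifit1: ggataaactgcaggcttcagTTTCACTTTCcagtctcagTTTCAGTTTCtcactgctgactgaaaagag
Oas3: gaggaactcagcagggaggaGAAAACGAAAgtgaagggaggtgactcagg

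The interferon-inducible GTPases, which attack the membranes of vacuoles that hold pathogens, had the highest median of the lists with 5 or more members tested, 3.51 on the log2 scale. All 16 of the 16 tested (of 19 listed) were higher after poly(I:C), each by more than 2-fold. Iigp1 stood at 0.479, 0.856 and 0.826 CPM after poly(dA:dT) and 22.2, 23.1 and 21.5 CPM after poly(I:C), a 30.4-fold gap, and Ifi47 at 0.192, 0.0856 and 0.348 and 6.16, 6.94 and 6.24 CPM (30.2-fold). Tgtp1 and Tgtp2 are near-identical copies whose counts could be split between them, with 19.3-fold for Tgtp1. The guanylate-binding proteins ranged from 2.97 (Gbp2) to 3.87 (Gbp5) in log2 fold change. After poly(dA:dT) the list's median against mock was 2.51, and after poly(I:C) it was 5.92.

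Chemokines were higher after poly(I:C) at 16 of 19 members tested (27 listed), with a median log2 fold change of 1.65. Cxcl10, which draws T cells and natural killer cells through Cxcr3, stood at 131, 135 and 131 CPM after poly(dA:dT) and 1328, 1329 and 1278 CPM after poly(I:C) (9.9-fold, adjusted p = 2.47e-162). Its fellow Cxcr3 ligands Cxcl9 and Cxcl11 were 20.9-fold and 20.8-fold higher, although the annotation types Cxcl11 as a polymorphic pseudogene. Ccl5 stood at 57.5, 59.1 and 60.2 and 681, 689 and 678 CPM (11.6-fold), and Ccl4, a chemokine of the same family, rose from 0.17 to 4.12 CPM between the group means (24.3-fold). The neutrophil chemokine Cxcl2 stood at 1.53, 2.14 and 1.87 and 42.3, 41.8 and 40.4 CPM (22.3-fold). Cxcl12, a homeostatic chemokine of stromal cells, went the other way, with 547, 559 and 565 CPM after poly(dA:dT) and 364, 363 and 369.8 CPM after poly(I:C), below a mock mean of 811 CPM (log2 -0.61, adjusted p = 8.34e-64). No library overlapped between the mimics for any chemokine given here. Of all genes tested, 32.9% lay wholly higher after poly(I:C) and 33.2% wholly lower.

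Inflammatory cytokines followed, with 24 of 32 tested (39 listed) higher and 1 lower, and a median of 1.33. Tnf stood at 0.575, 0.727 and 0.87 CPM after poly(dA:dT) and 29.2, 29.6 and 27.9 CPM after poly(I:C), a 39.4-fold gap (log2 5.30, SE 0.14, adjusted p = 1.8e-78). Il6 stood at 7.86, 4.58 and 6.31 and 60.7, 65.5 and 57.7 CPM (9.91-fold). Il27, an interleukin of the Il12 family, was 19.9-fold higher, at 4.29 against 0.212 CPM. The death ligand Tnfsf10 had 1 count after poly(dA:dT) and 33 counts after poly(I:C), a ratio of 36.7 after scaling to library size with a 95% counting interval of 6.14 to 1492. Gdf15, a stress hormone of the TGF-β superfamily, was the lower one, at 3.35, 3.72 and 3.22 CPM after poly(dA:dT) and 2.23, 2.41 and 1.62 CPM after poly(I:C) (log2 -0.69).

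NF-kB subunits, inhibitors and targets were higher at 33 of 35 members, 15 of them at least 2-fold, with a median of 0.90. The adhesion molecule Icam1 stood at 4.41, 3.85 and 3.35 CPM after poly(dA:dT) and 51.2, 53.8 and 52.9 CPM after poly(I:C) (13.6-fold). Tnfaip3, the A20 enzyme that shuts NF-kB signalling down, was 4.89-fold higher, and Nfkbia, the inhibitor IkBα, 2.09-fold. Ikbkg, the scaffold of the kinase complex, was lower by a log2 fold change of -0.19. The promoter stretches of Cxcl10, Cxcl2, Il6 and Nfkbia are shown because they hold NF-kB matches before the RefSeq start, at chr5:92348963-92349122 (minus strand), chr5:90903782-90903831 (plus), chr5:30013050-30013099 (plus) and chr12:55492648-55492696 (minus) of GRCm38.p6. Capitals mark the NF-kB letters (GGGA, any base, TTTCC), or their reverse complement, in Cxcl2, Il6 and Nfkbia. In Cxcl10 they mark 1 interferon-stimulated response element, at the 5′ end, and 2 matches to the NF-kB consensus. That consensus is the looser GGGRNWYYCC (R is A or G, W is A or T, Y is C or T, N any base). It was added after the data were seen. The promoter windows of Cxcl10, Ifnb1, Icam1, Tnfaip3 and Tnf held no match to the stricter NF-kB letters.
Cxcl10: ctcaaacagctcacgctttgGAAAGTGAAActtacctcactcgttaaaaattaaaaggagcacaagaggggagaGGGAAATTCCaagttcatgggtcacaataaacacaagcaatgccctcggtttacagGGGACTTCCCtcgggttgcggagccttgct
Cxcl2: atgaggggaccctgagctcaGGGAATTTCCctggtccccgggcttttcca
Il6: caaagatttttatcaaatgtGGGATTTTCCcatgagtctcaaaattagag
Nfkbia: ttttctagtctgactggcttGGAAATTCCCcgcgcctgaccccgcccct

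These letters were counted in all RefSeq promoter windows, 250 bases before to 50 bases after each start, on both strands (32851 windows; 10464 of the genes tested matched by symbol). The response element letters were found in 3.44% of all windows, in 3.07% of those of genes tested, in 10.2% of those at least 2-fold higher after poly(I:C) and in 20.3% of those at least 4-fold higher. Among windows of genes that were called higher by less than 2-fold the share was 2.97%. The NF-kB letters were found in 0.411% of all windows and 0.449% of those of genes tested. Their share was 1.65% of those at least 2-fold higher and 3.32% of those at least 4-fold higher. TGANTCA, the AP-1 letters, was found in 7.81%, 5.09%, 7.91% and 15.1% of the same classes in that order. TGATGNAA, the ATF4 and C/EBP letters, was found in 3.97%, 2.22%, 4.37% and 5.17% of them. The genes at least 2-fold lower had 44 windows, of which 1 held the response element letters and none the NF-kB letters. The shorter IRF core AANNGAAA and the NF-kB consensus were added after the data were seen. They were found in 23.9% and 4.51% of all windows and in 18.0% and 5.48% of those of genes tested. Among windows at least 2-fold higher the shares were 31.4% and 10.0%, while the NF-kB consensus was in 6 of the 44 lower ones (13.6%). A match describes the letters and not a bound site.

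**Figure D3:**
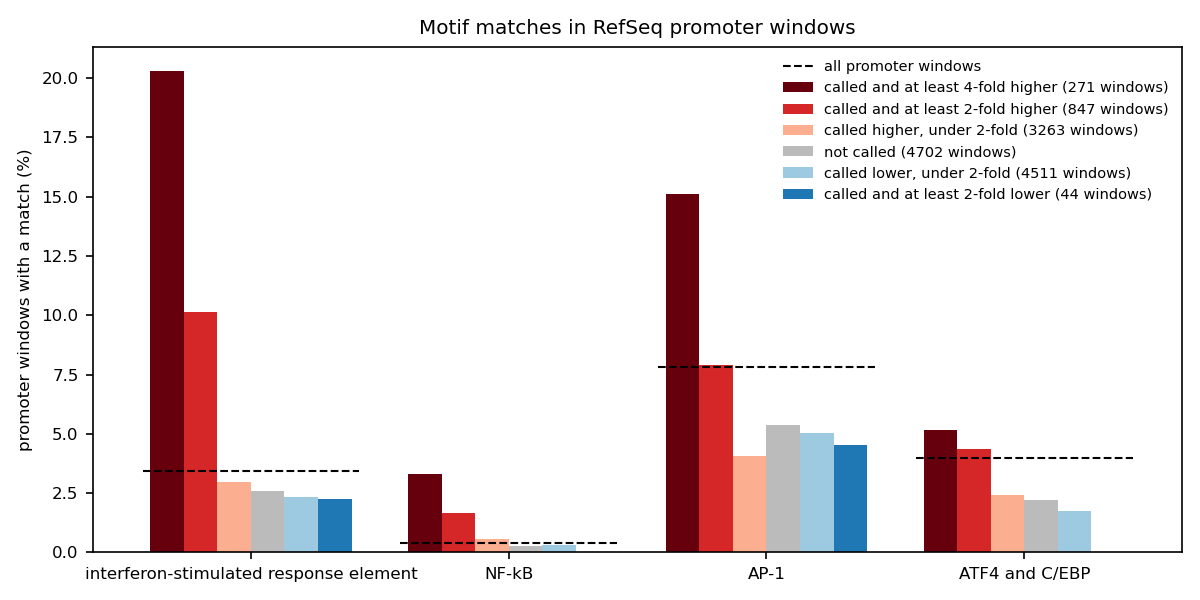
Bars give the percent of RefSeq promoter windows with a match, for 4 motifs and 6 classes of genes by their difference between the mimics; dashed lines give all promoter windows. The response element bar is 20.3% among genes at least 4-fold higher after poly(I:C) and 2.57% among genes not called.

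Antigen presentation by MHC class I differed within the pathway. The heavy chains H2-D1, H2-Q7 and H2-T24 were 3.07-fold, 7.7-fold and 7.77-fold higher after poly(I:C), with H2-D1 at 66.7, 65.2 and 62.8 CPM after poly(dA:dT) and 204, 199 and 196 CPM after poly(I:C). H2 genes share near-identical sequence, so counts could be split between copies. The 4 lower members were the chaperones of the endoplasmic reticulum that fold the heavy chains, Calr, Canx and Pdia3, and the trimming peptidase Erap1, with log2 fold changes of -0.53, -0.43, -0.56 and -0.14. In all, 20 of 25 members were higher, with a median of 1.03. Against mock the median was -0.00 for poly(dA:dT) and 1.00 for poly(I:C).

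Immediate early factors, the first genes that growth factors and stress switch on, were higher at 25 of 31 members (median 0.87). Egr1 stood at 125, 124 and 119 CPM after poly(dA:dT) and 445, 447 and 457 CPM after poly(I:C) (3.67-fold), and Atf3 at 73.6, 71.1 and 72.8 and 275, 271 and 269 CPM (3.75-fold). Fos was 1.97-fold and Jun 2.05-fold higher, and Myc 1.83-fold. Fosb, a close relative of Fos, went the other way, at 6.28, 4.66 and 5.44 CPM after poly(dA:dT) and 2.38, 1.77 and 2.46 CPM after poly(I:C), from 1.46 CPM in mock (log2 -1.32, adjusted p = 1.04e-11). For Fosb the ranges of the mimics did not overlap. The phosphatases and other brakes of the MAP kinase cascade were higher at 14 of 20 members, led by Spry4 (3.45-fold) and Dusp6 (3.23-fold), and Dusp7 was lower (log2 -0.39).

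Among enzymes that inflammation induces, Acod1, which makes itaconate in activated macrophages, was listed at 0.0958, 0.128 and 0.0435 CPM after poly(dA:dT) and 6.16, 7.07 and 5.82 CPM after poly(I:C) (67.3-fold). That fold rests on 6 counts in the poly(dA:dT) group. Hdc, which makes histamine, was 19.1-fold higher, and Nos2, the inducible nitric oxide synthase, 5.46-fold. Of 24 such genes listed, 16 were tested: 8 were higher (50%) and 2 lower (12.5%), against 31.3% and 32.1% of all genes tested. The macrophage markers were checked beside them: 7 of 12 had too few counts to be tested, Ptprc and Tyrobp were at 0, and the summed level of the 5 tested was 8.62 to 8.86 CPM after poly(dA:dT) and 7.74 to 11.1 CPM after poly(I:C). Within them Fcgr1, an antibody receptor that interferon induces, was 12.9-fold higher, and Cd14, a co-receptor for lipopolysaccharide, was lower (log2 -0.52). Csf1r, the receptor for macrophage colony-stimulating factor, was 2.46-fold higher at 0.287, 0.342 and 0.087 CPM after poly(dA:dT) and 0.582, 0.733 and 0.42 CPM after poly(I:C) (edgeR adjusted p = 0.0161). That call was lost in DESeq2 (adjusted p = 0.0543), without poly(dA:dT) replicate 3 (adjusted p = 0.14) and without poly(I:C) replicate 2 (adjusted p = 0.108). The part of other cell types in these values was not tested.

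Targets of p53 were lower after poly(I:C) than after poly(dA:dT), at 22 of 38 members against 7 higher, with a median of -0.30. Several canonical targets had their highest level after poly(dA:dT). Mdm2, the ubiquitin ligase that restrains p53, stood at 98.0, 96.1 and 102 CPM in the mock libraries, 248, 246 and 239 CPM after poly(dA:dT) and 132, 133 and 127 CPM after poly(I:C) (log2 -0.90 between the mimics, SE 0.0282, adjusted p = 6.67e-68). Cdkn1a, the cell cycle inhibitor p21, stood at 85.0 CPM in the mock libraries, 184, 185 and 188 CPM after poly(dA:dT) and 114, 114 and 114 CPM after poly(I:C) (log2 -0.70). Each of the 3 groups kept to a range of its own in both genes. Sesn2 and Btg2 had the same order of means, with 51.2, 110.4 and 79.8 CPM for Sesn2 and 11.6, 52.2 and 38.9 CPM for Btg2 in mock, poly(dA:dT) and poly(I:C).

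Trp53inp1, a p53 cofactor, showed the largest fall between the mimics among genes ranked by the rule above (mean of at least 1 CPM). It stood at 14.7, 16.8 and 17.5 CPM in the mock libraries, 29.4, 30.5 and 31.8 CPM after poly(dA:dT) and 9.65, 9.05 and 9.42 CPM after poly(I:C), so the poly(I:C) libraries lay below mock and the poly(dA:dT) libraries above it (log2 -1.71 between the mimics, adjusted p = 2.14e-47). Pmaip1, the BH3-only protein Noxa, was the opposite case within the list, at 26.1 CPM in the mock libraries, 96.2 CPM after poly(dA:dT) and 209.9 CPM after poly(I:C) (2.18-fold between the mimics). Against mock the list's median log2 fold change was 0.32 for poly(dA:dT) and 0.06 for poly(I:C). Trp53 itself was nearly level between the mimics (log2 0.06).

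Several other large falls had their highest group mean after poly(dA:dT). Wnt9a, a secreted Wnt ligand, stood at 3.63 CPM in the mock libraries, 16.9, 15.4 and 14 CPM after poly(dA:dT) and 5.92, 4.57 and 4.68 CPM after poly(I:C) (3.05-fold lower after poly(I:C)). Ddit4l, an inhibitor of mTOR signalling, stood at 7.98, 25.4 and 9.33 CPM, and its relative Ddit4 at 84.0, 125 and 62.3 CPM. Rprm, a p53-linked inhibitor of the cell cycle, stood at 0.26, 1.97 and 0.648 CPM, and Rasl11a, a small GTPase, at 1.59, 3.98 and 1.29 CPM. Nectin1, an adhesion molecule and herpesvirus entry receptor, was not called against mock after poly(dA:dT) and was lower than mock after poly(I:C), with group means of 9.14, 9.7 and 3.99 CPM for mock, poly(dA:dT) and poly(I:C). All of the 15 largest falls had ranges that did not overlap between the mimics, which the rule that ranked them required.

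**Figure D4:**
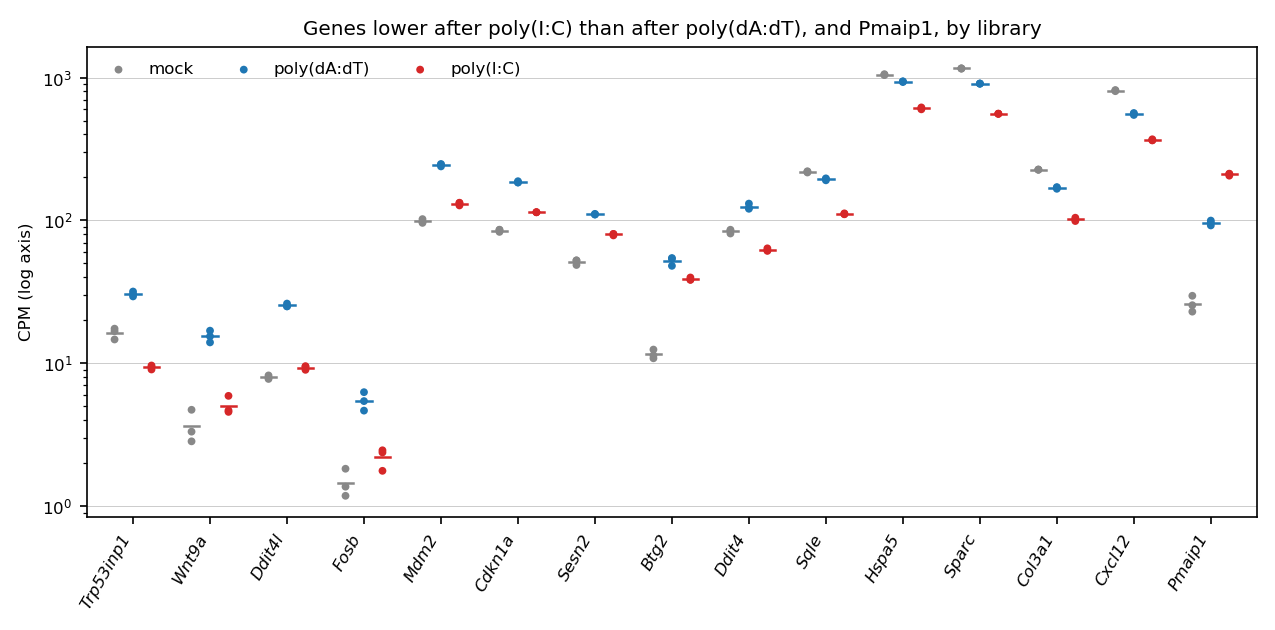
CPM on a log axis for 15 genes in each of the 9 libraries (points; short lines are group means). Mdm2, Cdkn1a, Wnt9a and Ddit4l are highest after poly(dA:dT), Sqle, Hspa5, Sparc, Col3a1 and Cxcl12 fall from mock through poly(dA:dT) to poly(I:C), and Pmaip1 is highest after poly(I:C) at 210 CPM.

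Chaperones of the secretory route and of the cytosol were mostly lower after poly(I:C). All genes tested at 100 CPM or more had a median of -0.11, with 1566 of 2686 called lower, and these lists were not matched for level. Of 25 genes of the unfolded protein response and its chaperones 20 were lower and 4 higher, with the lowest median of all lists, -0.41. Hspa5, the chaperone BiP, stood at 941, 939 and 930.2 CPM after poly(dA:dT) and 618, 599 and 608 CPM after poly(I:C) (log2 -0.62, adjusted p = 1.14e-70), with 1048 CPM in mock. The higher members were led by Herpud1 (log2 0.25) and Ern1, the stress sensor IRE1 (log2 0.18). Cytosolic heat shock genes were lower at 15 of 20 members, with Hspa8 at 1394 and 1034 CPM. The integrated stress response, which PKR feeds through eIF2α, had no common direction. Of its 33 members 12 were higher (36.4%) and 14 lower (42.4%), against 31.3% and 32.1% of all genes tested. Its phosphatase subunit Ppp1r15a stood apart at 84.4, 87.1 and 83.8 CPM after poly(dA:dT) and 334, 326 and 322 CPM after poly(I:C) (3.85-fold), and Ddit3, the factor CHOP, was 1.14-fold higher. The 14 became 9 when libraries were scaled by total counts and when genes under 50 counts were left out.

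Sterol synthesis genes were lower at 28 of 33 members (median -0.38). Sqle, an enzyme of the committed pathway, stood at 191, 195 and 197 CPM after poly(dA:dT) and 111, 112 and 110.4 CPM after poly(I:C), 1.75-fold lower. Against mock the list's median was -0.02 for poly(dA:dT) and -0.39 for poly(I:C). Ch25h, which makes the antiviral oxysterol 25-hydroxycholesterol and is itself an interferon-stimulated gene, was 3.4-fold higher, at 12.5, 13.4 and 13.5 CPM against 43.5, 46.7 and 43.8 CPM. Abca1, a cholesterol exporter, was lower at a log2 fold change of -0.81.

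Transcripts of the fibroblast's structure were lower in breadth and by small amounts. Collagens and other matrix genes were lower at 24 of 36 members tested (median -0.27), with Sparc at 909, 906 and 907 CPM after poly(dA:dT) and 557, 559 and 558 CPM after poly(I:C), against 1158 CPM in mock. Col3a1 and Col5a2 were lower by log2 fold changes of -0.74 and -0.68. Actin and contractile genes were lower at 29 of 34 members (median -0.23), among them Actg1 at 2873 and 2150.3 CPM and Acta2, smooth muscle actin, at 2560.5 and 2111 CPM. By contrast the matrix protease Adamts1 was 2.29-fold higher. The fibroblast markers moved with these groups: 7 of 12 tested were lower and 3 higher, and their summed level ran from 7419 to 7545 CPM after poly(dA:dT) and from 6640.1 to 6939 CPM after poly(I:C). Their part in the result was not tested.

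Housekeeping groups showed the same small shift. For comparison, all genes tested at 100 CPM or more had a median of -0.11, with 1566 of 2686 called lower. Cytosolic ribosomal protein genes were lower at 31 of 32 members (median -0.22), for example Rps4x at 1272 and 998 CPM, nuclear oxidative phosphorylation genes at 29 of 30 (median -0.24) and glycolysis genes at 20 of 29. NRF2 and redox genes were lower at 23 of 29, with Prdx1 at 669 and 448 CPM. Genes of G2 and M phase were lower at 28 of 35, for example Ccnb1, cyclin B1 (log2 -0.49), while DNA replication genes were higher at 23 of 38, for example Pole (log2 0.51). Total counts in place of TMM moved the median of all genes from 0.00 to 0.04 on the log2 scale, and no list median named here changed sign with it.

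Most tested transcripts of the mitochondrial genome ran against the nuclear genes of the same complexes. Of 13 listed genes 10 were tested: 8 were higher after poly(I:C) and none was called lower (median 0.71). The lowest log2 fold change among them was -0.44, which was not called. The 3 genes below the filter had few counts or none. By group (mock, DNA mimic, RNA mimic), mt-Co2 had 8, 7 and 10 counts, mt-Co3 had 12, 12 and 9, and mt-Nd4l had 0. Whether mapping or counting lost reads of this genome was not tested. mt-Cytb stood at 389, 396 and 392 CPM in the mock libraries, 305, 302 and 313 CPM after poly(dA:dT) and 590.3, 596 and 573 CPM after poly(I:C) (log2 0.94, adjusted p = 1.1e-86), and mt-Co1 at 677, 544 and 939 CPM. In both the poly(dA:dT) libraries lay below mock and the poly(I:C) libraries above it. All mitochondrial genes together took 0.259% to 0.263% of counts after poly(dA:dT), 0.317% to 0.323% in mock and 0.42% to 0.44% after poly(I:C).

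**Figure D5:**
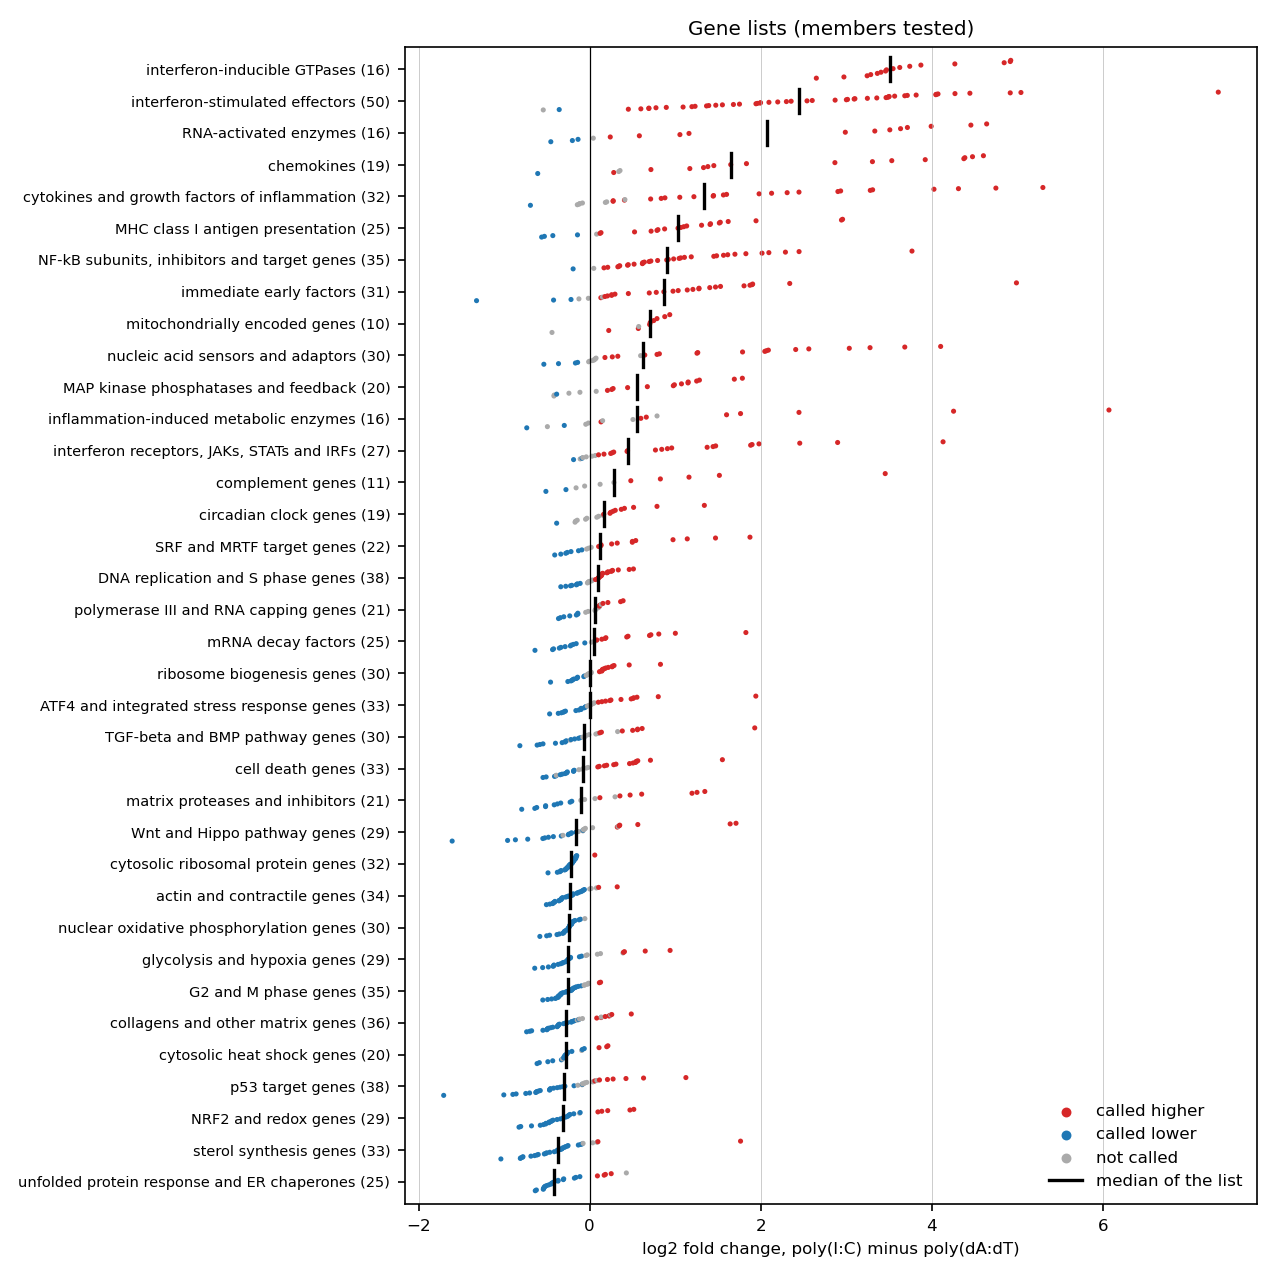
Each row is a gene list and each point a member tested, placed by its log2 fold change, poly(I:C) minus poly(dA:dT), and coloured by its call; black lines are list medians. Only lists with 5 or more members tested are drawn, marker lists left out, and their medians run from 3.51 for the interferon-inducible GTPases to -0.41 for the unfolded protein response and its chaperones.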

How the data were processed

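RNA sequencing measured 9 libraries, 3 per group. The authors deposited unnormalized read counts for Ensembl genes, in 1 file a library of 46603 identifiers. Per the submitters' processing notes, the build was GRCm38.p4 and the tools included TopHat2 2.1.0, HTSeq and DESeq2. Not given in the sources used here: annotation release, strand setting and how reads with several matches were treated. Per the labels' protocols, RNeasy columns gave the total RNA and TruSeq RNA v2 the libraries; that kit does not mark strand, so overlapping genes on opposite strands cannot be told apart. Symbols, types and positions came from GENCODE M21 (GRCm38), which held 46005 of the identifiers; the other 598 carried 0.0914% of the counts.

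Counts were tested with edgeR 4.0.16 (R 4.3.3), two-sided, by its quasi-likelihood test in robust mode, with TMM scaling and filterByExpr by group, which kept 14176 genes. A model with a mean for each group was fitted to the 9 libraries. P-values were adjusted by Benjamini and Hochberg's method across the genes tested (threshold 0.05). CPM uses TMM-scaled library sizes, and a count of 0 allows up to 3 counts, which equal 0.128 to 0.18 CPM in the 6 libraries; limits and intervals cover counting error only. The prior count was 0.125, and a standard error (SE) is the log2 fold change over the square root of the F statistic. Chi-square per degree of freedom between replicates lay between 1.64 and 2.1, so no library was counted as a repeat. The code was tested on simulated data.

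The members and the 43 gene lists (1088 symbols, 973 tested) were chosen with earlier results of these data known. Lists are described by counts and medians, with no test of their own. The filter also kept members that had enough counts in a single group only. Genes were named as the 15 largest changes per direction (called, mean of at least 1 CPM over the 6 libraries, no overlap between the mimics, no predicted gene's symbol), up to 4 called members of each list with the largest change and up to 2 against the list's median, and 31 key genes; other names were chosen after their values were seen. Promoter sequences are from RefSeq (GRCm38.p6). Alternatives were 3 other scalings, the DESeq2 1.42.0 test, 2 other filters, the 6 libraries alone, a prior count of 2, the replicate number as a block, and each library left out. Some named genes are not reported here.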

Additional observations from a re-analysis of the deposited data

How the results depend on the processing

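The counts of genes called higher, called lower and past 2-fold stayed within 1.5 times the values above under the other scalings, the DESeq2 test, no filter, the 6 libraries alone and each library left out. The exception was a filter of 50 counts in 3 libraries, which tested 11717 genes and left 532 at least 2-fold higher and 18 at least 2-fold lower. Leaving out 1 library gave 4140 to 4546 higher, 4302 to 4659 lower, 1089 to 1226 at least 2-fold higher and 56 to 68 at least 2-fold lower. With the replicate number as a block, though same-numbered libraries of the mimics did not deviate together (correlations -0.0061, 0.0063 and -0.014), 4381 were higher, 4524 lower, 1076 at least 2-fold higher and 57 at least 2-fold lower. Scaling by total counts gave 4978 higher and 3978 lower, and DESeq2 gave 4017 and 4209. Of 4216 values of the 236 named genes under alternatives, 4153 kept their direction and side of the threshold, 60 lost their call and 3 changed sign. The latter were Tmem173, not called, at -0.0211, -0.0169 and -0.0236 on the log2 scale without poly(dA:dT) replicate 1, poly(dA:dT) replicate 2 and poly(I:C) replicate 1; leaving out each library gave -0.0236 to 0.139. The medians of the integrated stress response and ribosome biogenesis lists, near 0, changed sign under some alternatives. Depth limits the genes under 1 CPM, where 400 of the 1080 large rises and 26 of the 58 large falls lie. The 2 motifs added after the data were seen are given with the promoters.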

Other observations

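Several non-coding classes had more members called higher than lower after poly(I:C), although most of their members were not called. Of 303 lincRNA genes tested 123 were called higher and 18 lower, with a median log2 fold change of 0.41, against 3905 and 4439 of 12714 protein-coding genes. Loci that the annotation types as TEC, a provisional class, were higher at 80 of 188 and lower at 8, and their share of all counts was 0.0842% in mock, 0.106% with poly(dA:dT) and 0.208% with poly(I:C). Antisense genes were higher at 101 of 288, but the library kit does not mark strand, so their reads cannot be told from those of the partner gene. Processed pseudogenes were higher at 37 and lower at 37 of 208, with a median of -0.10. Small nucleolar RNA genes had 0 higher and 1 lower of 34 by edgeR. These classes hold many low genes, and genes under 1 CPM of any type were called higher at 463 of 1563.

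A count in all 3 poly(I:C) libraries with 0 in all 3 poly(dA:dT) libraries was found for 286 genes, and the reverse for 32, of 24382 genes with a count in the 6 libraries. With at least 10 counts per library the numbers were 3 and 0. Nts, the precursor of the peptide neurotensin, had 21, 25 and 19 counts after poly(I:C) and none in the other 6 libraries, at least 24.1-fold over poly(dA:dT). Rapgef4, an exchange factor that cyclic AMP activates, had 10, 15 and 15 counts and none in the others, at least 14.8-fold, and 1700012B07Rik was the third. Each bound takes 3 counts over the poly(dA:dT) group.

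Some of the 15 largest rises were of genes that stood near 0 after poly(dA:dT). Nhlh1, a neuronal helix-loop-helix factor, had 1 count in the poly(dA:dT) libraries and 31, 55 and 39 counts in the poly(I:C) libraries, a ratio of 139 after scaling to library size, with a 95% counting interval of 24.5 to 5531. Calb2, the calcium-binding protein calretinin, stood at 0.144, 0.0856 and 0.087 CPM after poly(dA:dT) and 2.52, 2.37 and 2.82 CPM after poly(I:C), and Tacr2, a tachykinin receptor, at 0.287, 0.0856 and 0.304 and 5.04, 4.87 and 5.94 CPM. The nearest tested neighbours on the chromosome were called with smaller changes or not called: Vangl2 and Ncstn beside Nhlh1 had log2 fold changes of -0.28 and -0.23, and Tspan15 and Hk1 beside Tacr2 -0.08 and -0.26. Both neighbours of Calb2 were higher, Zfp612 by 1.09 and Cmtr2 by 0.36. Beside Tnf, Ltb and Lta were higher by 3.28 and 2.13. Of 10 neural markers, 3 were tested and not called, and the other 7 were below the filter: among them Gfap had 11 counts in the mock group, 6 with poly(dA:dT) and 38 with poly(I:C), and the rest had at most 2 counts per group.

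Cell death genes had no common direction, with 14 of 33 tested higher (42.4%), 13 lower (39.4%) and a median of -0.07. Of all genes tested, 31.3% were higher and 32.1% lower. The members named here were chosen after their values were seen. Higher after poly(I:C) were Casp4, an inflammatory caspase (1.55 on the log2 scale), Cflar (0.56), Mlkl (0.55), Fadd (0.54), Bid (0.51), Gsdmd (0.28), Ripk1 (0.17), Casp8 (0.10) and Bcl2l11 (0.71). Lower were Apaf1, the scaffold of the apoptosome (-0.55), Casp6 (-0.39), Bak1 (-0.27), Bad (-0.27), Ripk3 (-0.26) and Cycs (-0.18), and Casp9 was not called (-0.07).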
